A study of Homo sapiens with 8 samples.

Results

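Intergenic long noncoding RNAs (lincRNAs) were followed in RMG1, an established line of human ovarian clear cell carcinoma. Rows of the count table were taken as members where GENCODE 29 gives the biotype lincRNA and were selected on their measured level: the count per 1000000 counts of the library (CPM) had to average 1 or more over the 8 libraries. This left 239 of 6576 lincRNA rows in a table of 57736 Ensembl genes, and 2395 of the lincRNA rows held a count in at least 1 library. The 4 groups of 2 libraries were ARID1A-knockout (KO) cells, wild-type (WT) cells with ARID1A and CAPH2 intact, CAPH2-knockdown (KD) cells and cells with a control shRNA (shControl); both shRNA groups carry ARID1A as WT. ARID1A belongs to SWI/SNF, which remodels chromatin, and CAPH2, encoded by NCAPH2, is a subunit of condensin II. The labels name neither the clones nor the shRNA sequences. They do not say whether the libraries within a group were grown separately, so the p-values reflect library-to-library spread that may be technical.

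Most lincRNAs are transcribed by RNA polymerase II and are capped, spliced and polyadenylated like messenger RNAs but code for no known protein. Some stay in the nucleus and organise nuclear bodies, some act in the cytoplasm on RNA-binding proteins, and others serve as precursors of small nucleolar RNAs or microRNAs. Many are restricted to few cell types, and their genes often lie near developmental or stress-response genes.

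The level used in the rule was the mean over all groups, so it was given as a description. The median member stood at 2.75 CPM. There were 195 members under 10 CPM, 44 at 10 CPM or more and 6 at 100 CPM or more. Just inside the threshold lay AC106712.1 (1.01 CPM), AL118558.3 (1.01 CPM) and AC011445.2 (1.00 CPM), and just outside it AL137802.2 (0.999 CPM), AL590705.1 (0.996 CPM) and AC073486.1 (0.996 CPM). For 21 members the mean over the other 3 groups was under 1 CPM, so these passed through the group where they were highest; 9 of them were highest in KO, 4 in WT, 6 in KD and 2 in shControl cells.

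The label "intergenic" held for part of the set. By the GENCODE 29 annotation on GRCh38, 133 members shared no exonic base with another gene, 54 overlapped an exon on their own strand, 70 overlapped one on the opposite strand, and 48 lay at least in part within the body of a protein-coding gene. The nearest protein-coding gene overlapped 45 members and lay within 5 kb of 64, between 5 and 50 kb from 66 and farther from 64. A start within 1 kb of a coding gene's start on the opposite strand was found for 45 members. Single-exon genes made up 60 of the 239, and merged exonic length ran between 131 and 28487 bases with a median of 2478. Reads were counted with RSEM, which divides reads that match several genes, and the strand setting is not given in the sources used here. For 26 members over 50% of all 50-base words also occurred in another gene's transcripts, and for 71 none did.

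Library totals lay between 24559547 and 37378691 counts, and 1 count was worth between 0.0261 and 0.0413 CPM. The 2 libraries of every group differed by more than counting noise, with a chi-square per degree of freedom of 5.35 in KO, 19.9 in WT, 14.4 in KD and 4.31 in shControl. ARID1A averaged lower in KO than in WT cells (log2 fold change −0.77, SE 0.16, edgeR adjusted p = 0.00274), and NCAPH2 lower in KD than in shControl cells (−1.49, SE 0.10, edgeR adjusted p = 1.84e-06). NCAPH2 was also lower in KO than in WT cells (−0.34, SE 0.09, edgeR adjusted p = 0.0144). The 8 markers of ovarian clear cell carcinoma that were matched to rows all had counts in every group. Their summed level was 3028 and 3040 CPM in the KO libraries, 4368 and 4668 CPM in WT, 5939 and 5951 CPM in KD, and 5163 and 5219 CPM in shControl. The markers did not move together: in KO SPP1, CDH6, KRT7, KRT8 and ANXA4 were called lower, EPCAM higher, and PAX8 and KRT18 neither, and in KD SPP1 was called higher and PAX8 and CDH6 lower. SPP1 had 826.6 and 802.5 CPM in KO against 1952 and 1704 CPM in WT, and 3243 and 3198 CPM in KD against 2331 and 2363 CPM in shControl cells. The 5 leukocyte markers summed to between 2.27 and 2.49 CPM in KO and to at most 0.435 CPM in WT, and to between 0.662 and 1.19 CPM in KD and at most 0.279 CPM in shControl, with CD3E at 0 throughout. The KO sum was mostly PTPRC, at 2.25 and 1.99 CPM, while CD14 had 0.0274 and 0 CPM in KO, against 0.372 and 0.435 CPM in WT cells. The 5 fibroblast markers summed to between 0.992 and 1.12 CPM in KO and to at most 0.455 CPM in WT, with COL3A1 at 0. The part of these shifts in the lincRNA values was not tested. In bulk RNA, fewer cells that express an RNA and less of it per cell cannot be told apart.

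The most abundant members included RNAs with known housekeeping or scaffold roles. Levels from here on are CPM after TMM scaling (trimmed mean of M values), which adjusts for library composition. MALAT1, an RNA of nuclear speckles, had 3172 and 2787 CPM in KO, against 2724 and 2558 CPM in WT cells (log2 fold change 0.17, SE 0.07, edgeR adjusted p = 0.0751). SNHG8, the host of the small nucleolar RNA SNORA24, had 2171 and 1658 CPM in KO, against 2181 and 1224 CPM in WT cells. The WT libraries of SNHG8 differed from each other by more than the KO and WT means did. RMRP, the RNA of ribonuclease MRP, had 891.5 and 949.5 CPM in KD, against 703.5 and 680.2 CPM in shControl cells, with no overlap between the groups (log2 fold change 0.41, SE 0.08, edgeR adjusted p = 0.0051). That call was lost without KD library 2 or without shControl library 2 (0.37 and 0.39). NORAD, an RNA that binds Pumilio proteins and rises on DNA damage, had 256 and 255.6 CPM in KO against 251.3 and 220.8 CPM in WT, and 322.7 and 329.4 CPM in KD against 324.1 and 309.6 CPM in shControl cells, and passed neither test. Its shRNA groups stood above WT (shControl minus WT 0.43). NEAT1, the scaffold of paraspeckles, had 163.5 and 159.4 CPM in KO, between the WT values of 183.4 and 142.4 CPM; it had 169 and 171.8 CPM in KD, against 161.2 and 152.9 CPM in shControl cells, and passed neither test.

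Per kilobase of exonic length the order was another one: RMRP stood at 3193 CPM per kb, SNHG8 at 2338, AL360012.1 at 421.7, MALAT1 at 293.9 and Z93241.1 at 282.7. RMRP, SNHG8, AL360012.1 and Z93241.1 overlap in the annotation with a small structured RNA whose own gene was not matched to a row of the table, so their counts can include the small RNA. The 3 stretches printed next are those shared with the small RNA, read from the GENCODE 29 transcripts. The first is U12, a small nuclear RNA of the minor spliceosome, which makes up the first 150 of 664 bases of the Z93241.1 transcript on chromosome 22. The next is U11, its partner, which covers all 131 bases of AL360012.1 on chromosome 1. The last is SNORA24, which lies inside the 570-base transcript of SNHG8 on chromosome 4, starting at base 131.
Z93241.1 with RNU12: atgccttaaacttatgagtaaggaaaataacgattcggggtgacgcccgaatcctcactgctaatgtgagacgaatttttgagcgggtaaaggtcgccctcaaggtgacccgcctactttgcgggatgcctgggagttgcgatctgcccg
AL360012.1 with RNU11: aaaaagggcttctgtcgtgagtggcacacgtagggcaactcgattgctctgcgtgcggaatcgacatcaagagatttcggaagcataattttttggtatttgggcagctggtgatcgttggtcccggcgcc
SNHG8 with SNORA24: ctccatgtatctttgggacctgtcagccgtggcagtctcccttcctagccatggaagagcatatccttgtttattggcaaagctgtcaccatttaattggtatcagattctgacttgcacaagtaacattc

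Z93241.1 had 194 and 234.2 CPM in KD, against 278 and 277.5 CPM in shControl cells (log2 fold change −0.38, SE 0.10, edgeR adjusted p = 0.0205), and 142.5 and 118.1 CPM in KO, against 125 and 132.2 CPM in WT cells. The KD call was lost without KD library 1 or without either shControl library. Set against WT, both shRNA groups were high in this row. AL360012.1 had 54.4 and 79.9 CPM in KD, against 63.1 and 67.6 CPM in shControl cells, and passed neither test. The 239 members together held between 0.724% and 0.875% of a library's counts, and without the 3 highest members between 0.231% and 0.255%. The share was 0.875% and 0.772% in KO, against 0.806% and 0.724% in WT cells, which overlap. It was 0.774% and 0.805% in KD, against 0.856% and 0.806% in shControl cells, which narrowly do not. Without the 3 highest rows of the table, the KD values of 0.947% and 0.997% overlapped those of shControl, 1.04% and 0.992%. With 2 libraries against 2 the exact permutation test, two-sided, allows no p below 0.333, so neither difference could pass.

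The comparison of KO with WT cells asked which lincRNAs differ when ARID1A is lost. NRAD1, a retinoic acid-regulated RNA known from breast cancer, stood in KO at 0.0529 times its WT level (fitted fold), and PURPL, a p53-induced RNA known to limit p53 activity, at 29.6 times, though PURPL is a member only through its level in KO. Both values come from 2 libraries a group. Of the 239 members, 64 passed the test (26.8%; quasi-likelihood F-test of edgeR, p adjusted by Benjamini-Hochberg over 16657 genes and under 0.05), 44 higher (18.4%) and 20 lower (8.37%) in KO. With shControl in place of WT as the reference of KO, 35 members were called lower; 23 of the 44 rises were still called higher, 20 were not called and 1 was called lower, and 16 of the 20 falls were still called lower. Over all genes tested the shares for KO against WT were 34.5% in either direction, 16.8% higher and 17.8% lower. For KO against shControl, neither the share over all genes nor the count of members called higher is given. The 35 called lower against shControl thus have no background here. Against WT, a change of at least 2-fold was called for 35 members (14.6%), 22 higher and 13 lower, and for 10% of all genes tested. The 22 include PURPL and AC093821.1, which are members only through KO, so this share is a description. Among 11445 protein-coding genes of 1 CPM or more, 42.3% were called. The median log2 fold change was 0.11 over the members and 0.00022 over all genes tested. Of the 21 members that passed the threshold through their highest group, 8 were among the called, and without the 21 the count was 56 of 218.

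**Figure D1:**
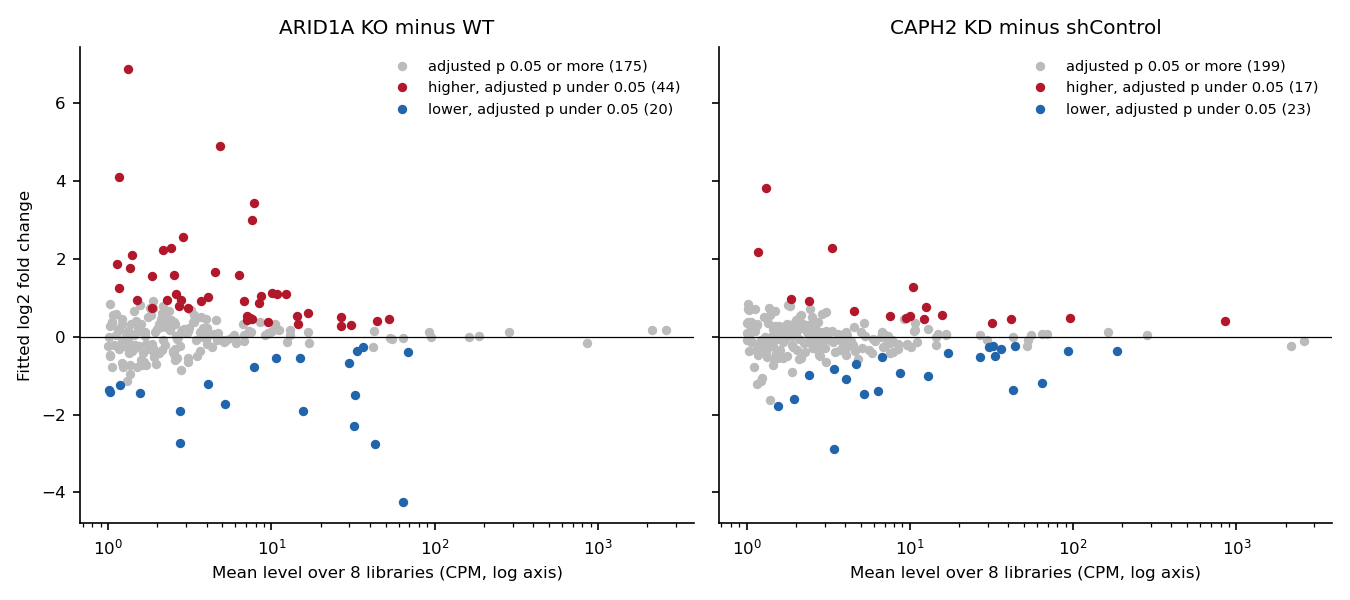
Fitted log2 fold change (vertical axis) against mean level over the 8 libraries in CPM (horizontal log axis) for the 239 lincRNAs, KO minus WT on the left and KD minus shControl on the right. Coloured points passed an adjusted p under 0.05: 44 higher and 20 lower in KO, 17 higher and 23 lower in KD.

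The share called was larger at higher levels, for members and for protein-coding genes. Of 127 members between 1 and 3 CPM, 23 were called in KO (18.1%, with 27.1% of protein-coding genes of that level), of 68 between 3 and 10 CPM 19 (27.9%, coding 32.8%), and of 44 at 10 CPM or more 22 (50%, coding 47.7%). The median standard error of the log2 fold change in these 3 ranges was 0.32, 0.20 and 0.10. At least 2-fold calls made up 14.2% of the members between 1 and 3 CPM, below the 23.1% of protein-coding genes there. Between 3 and 10 CPM the shares were 13.2% and 13.4%. At 10 CPM or more they were 18.2% of the 44 members and 5.0% of the protein-coding genes.

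NRAD1 (ENSG00000233725, chromosome 13, LINC00284 in GENCODE 29) had 6.002 and 6.032 CPM in KO, against 119.6 and 108.1 CPM in WT cells. It had 72.3 and 69.8 CPM in KD, against 69.1 and 67.4 CPM in shControl cells. The KO libraries thus lay far below all others, and the shRNA groups lay below WT. Its log2 fold change was −4.24 in KO (SE 0.08, edgeR adjusted p = 4.72e-11) and 0.06 in KD (SE 0.06, edgeR adjusted p = 0.605), and the 2 effects differed (−4.30, SE 0.10, edgeR adjusted p = 4.34e-10). With shControl in place of WT the KO value was −3.50. Levels ran in the order WT, KD, shControl, KO, and KD and shControl did not differ beyond the test. Of the 5160 exonic bases of NRAD1, 870 are shared with the protein-coding gene AL512506.3 on the same strand. The promoter is shown because NRAD1 had the largest fall of all members; here and in the later promoters, capitals mark motif matches, and the window runs 250 bases upstream to 50 bases downstream of the RefSeq start on GRCh38.p14.
NRAD1, chr13:44022085-44022384, + strand: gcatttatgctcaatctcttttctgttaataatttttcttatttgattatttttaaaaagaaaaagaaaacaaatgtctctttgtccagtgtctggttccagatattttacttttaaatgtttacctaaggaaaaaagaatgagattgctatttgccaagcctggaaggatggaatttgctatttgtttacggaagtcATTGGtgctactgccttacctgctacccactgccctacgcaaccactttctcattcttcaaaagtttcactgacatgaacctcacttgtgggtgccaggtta
The capitals are a CCAAT box on the reverse strand at base −52 from the start. GC content of this window was 36.0%, against a median of 60.0% over the 123 members with a RefSeq promoter and 58.3% over 27305 promoters.

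Over the 8 libraries, genes whose log2 CPM followed NRAD1 closely were TSPAN14 (Pearson r 0.998), NNMT (0.997), MBNL2 (0.997) and SMS (0.996). These r values describe 8 libraries in which the KO pair stands apart, and they carry no test. MBNL2, a splicing regulator on chromosome 13 like NRAD1, had 47.1 and 44.6 CPM in KO, against 115.8 and 120.2 CPM in WT cells. NNMT, nicotinamide N-methyltransferase, had 236.4 and 218.6 CPM in KO, against 960.3 and 930.5 CPM in WT cells. The members closest to NRAD1 were AC109588.1 (r 0.972), LINC01320 (0.955) and AC003092.1 (0.937).

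Other members that fell in KO differed in where the shRNA groups stood. LINC03033 (chromosome 14) had 17.3 and 16.8 CPM in KO, against 121.5 and 110.7 CPM in WT cells, and 9.77 and 11.7 CPM in KD, against 28.0 and 27.2 CPM in shControl cells. It was low in KO and lowest in KD, with no overlap in either comparison. Its log2 fold change was −2.77 in KO (SE 0.08, edgeR adjusted p = 1.02e-09) and −1.36 in KD (SE 0.09, edgeR adjusted p = 1.86e-06). ShControl cells were themselves below WT (−2.07), and against shControl the KO fall was −0.69.
LINC03033, chr14:61570290-61570589, + strand: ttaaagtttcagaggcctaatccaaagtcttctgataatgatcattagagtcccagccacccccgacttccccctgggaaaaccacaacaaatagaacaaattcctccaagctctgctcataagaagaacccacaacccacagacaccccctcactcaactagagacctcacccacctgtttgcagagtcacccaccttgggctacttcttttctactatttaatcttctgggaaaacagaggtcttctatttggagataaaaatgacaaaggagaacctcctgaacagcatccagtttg
This promoter, of 1 of the 5 members called lower in both comparisons, held none of the motifs searched and had a GC content of 45.0%.

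AC109588.1 (chromosome 4) had 0.521 and 0.731 CPM in KO, against 4.13 and 4.24 CPM in WT cells (log2 fold change −2.73, SE 0.31, edgeR adjusted p = 4.23e-05). LINC01320 (chromosome 2) had 7.43 and 7.34 CPM in KO, against 32.9 and 39.7 CPM in WT cells (−2.30, SE 0.10, edgeR adjusted p = 1.69e-08). In both, the KO pair lay below the other 6 libraries. AL591848.4 (chromosome 1) had 0.658 and 0.522 CPM in KO, against 2.15 and 2.32 CPM in WT cells (−1.92, SE 0.27, edgeR adjusted p = 0.000196). AC003092.1 (chromosome 7) had 6.61 and 6.24 CPM in KO, against 27.4 and 20.7 CPM in WT cells (−1.90, SE 0.15, edgeR adjusted p = 1.78e-06). LINC01322 (chromosome 3) was lower in both comparisons, with 3.23 and 2.58 CPM in KO against 11.2 and 8.26 CPM in WT, and 1.86 and 2.58 CPM in KD against 6.50 and 5.78 CPM in shControl cells. Its effects of −1.74 and −1.47 were not called different (difference −0.27, SE 0.31, edgeR adjusted p = 0.579). LINC01541 (chromosome 18) had 5.48 and 4.73 CPM in KO, against 14.6 and 14.4 CPM in WT cells (−1.51, SE 0.09, edgeR adjusted p = 2.9e-07). The shRNA groups were far above WT in LINC01541, with 50.1 and 51.4 CPM in KD and 58.9 and 61.8 CPM in shControl cells. Against shControl in place of WT, the KO difference was −2.77 for AL591848.4, −1.04 for AC003092.1, −1.08 for LINC01322 and −3.56 for LINC01541.

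**Figure D2:**
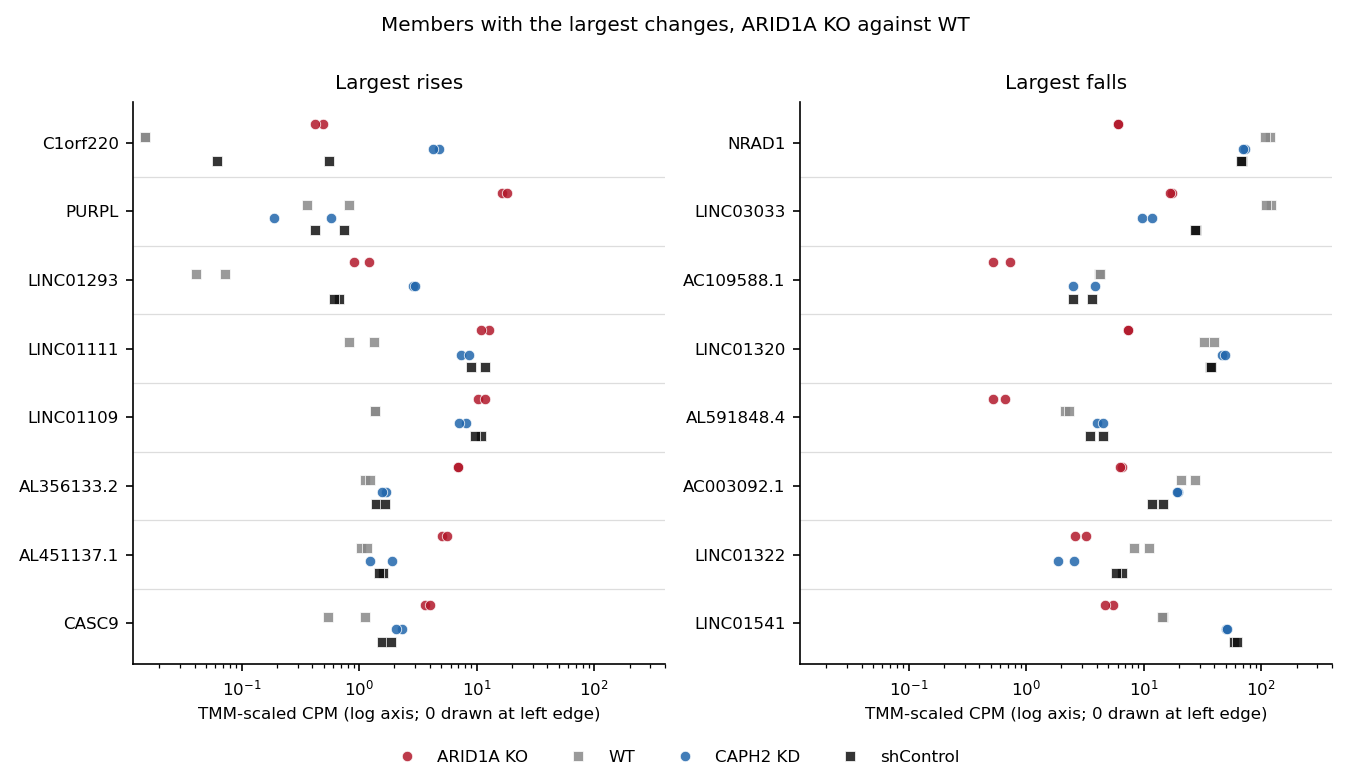
TMM-scaled CPM (log axis) in every library for the 8 largest rises (left) and falls (right) among the members called in KO against WT; each point is 1 library, circles for KO and KD, squares for WT and shControl, with KO above WT and KD above shControl. NRAD1 lies near 6 CPM in KO and at 108.1 CPM or more in WT, and LINC01111 and LINC01109 are as high in shControl as in KO.

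Among the rises, PURPL (ENSG00000250337, chromosome 5) had 16.5 and 18.2 CPM in KO, against 0.827 and 0.362 CPM in WT cells. It had 0.189 and 0.58 CPM in KD, against 0.743 and 0.419 CPM in shControl cells. Only the KO libraries were above 1 CPM, so PURPL is a member only through KO, and its KO value is given as a description. Its log2 fold change was 4.89 in KO (SE 0.35) and −0.58 in KD (SE 0.51, edgeR adjusted p = 0.515), and 4.90 with shControl as the reference of KO; without WT library 1, the KO value was 5.56. The promoter is shown because it holds a full p53 site, 2 adjacent copies of the consensus with no spacer, in capitals from base −127.
PURPL, chr5:27472042-27472341, + strand: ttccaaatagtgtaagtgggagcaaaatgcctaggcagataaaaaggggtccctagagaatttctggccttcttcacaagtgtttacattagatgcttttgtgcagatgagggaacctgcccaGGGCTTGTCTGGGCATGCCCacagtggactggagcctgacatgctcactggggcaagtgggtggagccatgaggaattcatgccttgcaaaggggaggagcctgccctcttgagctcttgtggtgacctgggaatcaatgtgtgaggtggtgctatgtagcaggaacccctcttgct
Such a match occurred in 5 of 27305 promoters (0.0183%) and in 1 of the 123 member promoters, this one. A match is a run of letters and shows no binding.

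C1orf220 (chromosome 1) had 0.493 and 0.418 CPM in KO and no count in either WT library, so it was at least 8.05-fold higher against a floor of 3 counts over the WT group. It had 4.79 and 4.29 CPM in KD, against 0.0619 and 0.558 CPM in shControl cells (log2 fold change 3.82, SE 0.58). The KD libraries were the only ones above 1 CPM. The KD value was 3.01 without shControl library 1 and 6.11 without shControl library 2. LINC01293 (chromosome 2) had 79 counts in KO and 3 in WT cells, a depth-scaled ratio of 18.7 with an exact 95% counting interval of 6.17 to 92.7. Such floors and intervals cover counting error only. LINC01293 had 2.90 and 2.97 CPM in KD, against 0.681 and 0.614 CPM in shControl cells (2.17, SE 0.33). Both RNAs are members only through KD, so their KD values are a description. The 2 RNAs were also higher in shControl than in WT cells, and neither KO call held against shControl (C1orf220 0.51, edgeR adjusted p = 0.575; LINC01293 0.71, edgeR adjusted p = 0.124).

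LINC01111 and LINC01109 both lie nearest to ZFHX4 on chromosome 8, farther than 50 kb from it. LINC01111 had 12.7 and 10.99 CPM in KO, against 0.827 and 1.34 CPM in WT cells (log2 fold change 3.43, SE 0.23, edgeR adjusted p = 5.76e-07), and LINC01109 had 10.3 and 11.8 CPM in KO, against 1.36 and 1.38 CPM in WT cells (3.01, SE 0.17, edgeR adjusted p = 1.39e-07). In shControl cells LINC01111 had 9.01 and 11.8 CPM and LINC01109 10.8 and 9.61 CPM, so the WT libraries were the lowest, and KD lay between at 7.06 to 8.64 CPM. Against shControl the KO differences were 0.18 (edgeR adjusted p = 0.425) and 0.11 (edgeR adjusted p = 0.526). AL356133.2 and AL451137.1, on chromosome 9, were high in KO alone. CAAP1 is their nearest coding gene, within 50 kb of the first and farther from the second. AL356133.2 had 6.99 and 6.97 CPM in KO, against 1.12 and 1.23 CPM in WT cells (2.57, SE 0.21, edgeR adjusted p = 3.1e-06). AL451137.1 had 5.04 and 5.62 CPM in KO, against 1.03 and 1.16 CPM in WT cells (2.27, SE 0.26, edgeR adjusted p = 4.42e-05). The shRNA groups lay between 1.23 and 1.90 CPM for both. CASC9, an RNA known from squamous carcinoma of the oesophagus, had 3.65 and 4.05 CPM in KO, against 1.12 and 0.543 CPM in WT cells (2.23, SE 0.32, edgeR adjusted p = 0.000214). Its KO value was 1.15 against shControl and 2.81 without WT library 1.

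The comparison of KD with shControl cells asked which lincRNAs differ when CAPH2 is depleted. Fewer members passed than in KO: 40 of 239 (16.7%), of which 17 were higher (7.11%) and 23 lower (9.62%) in KD. Over all genes tested the shares were 15.8% in either direction, 7.62% higher and 8.22% lower, so the members lay near the background. Of the 21 members that passed the threshold through their highest group, 2 were called in KD, and without the 21 the count was 38 of 218. At least 2-fold calls numbered 13 (5.44%), 4 higher and 9 lower, against 2.97% of all genes tested. The 4 rises include C1orf220 and LINC01293, which are members only through KD, so this share is a description. The median log2 fold change was −0.03 over the members and 0 over all genes tested. By level, 7 of 127 members between 1 and 3 CPM were called (5.51%, with 8.31% of protein-coding genes), 12 of 68 between 3 and 10 CPM (17.6%, coding 12.6%) and 21 of 44 at 10 CPM or more (47.7%, coding 25.3%). The number called ran between 19 and 24 when a KD or shControl library was left out.

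LINC02185 (ENSG00000262097, chromosome 16) had 9.24 and 7.93 CPM in KD, against 1.83 and 1.70 CPM in shControl cells. The KO and WT libraries lay between 1.195 and 1.88 CPM, so the KD pair stood above the other 6. Its log2 fold change was 2.28 in KD (SE 0.20, edgeR adjusted p = 1.57e-05) and 0.39 in KO (SE 0.23, edgeR adjusted p = 0.227), and the 2 effects differed (−1.89, edgeR adjusted p = 0.000838). LINC01502 (ENSG00000237339, chromosome 9) had 0.0946 and 0.161 CPM in KD, against 0.99 and 0.949 CPM in shControl cells. The KO and WT libraries were higher, at 5.81 and 6.35 CPM in KO and 7.44 and 5.43 CPM in WT. Its KD log2 fold change was −2.89 (SE 0.40, edgeR adjusted p = 0.000451), and shControl was itself below WT (−2.72, edgeR adjusted p = 2.48e-05). The promoters of both are shown as those of the largest rise not shared with KO and of the largest fall in KD; capitals mark, in LINC02185, a TEAD motif and an AP-1 motif, and in LINC01502 a TEAD motif.
LINC02185, chr16:14015969-14016268, − strand: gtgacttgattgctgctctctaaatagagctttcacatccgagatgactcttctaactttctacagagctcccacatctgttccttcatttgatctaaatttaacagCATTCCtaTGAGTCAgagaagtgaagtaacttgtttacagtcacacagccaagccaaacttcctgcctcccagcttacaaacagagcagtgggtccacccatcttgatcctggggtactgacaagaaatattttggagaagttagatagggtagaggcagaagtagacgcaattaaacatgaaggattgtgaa
LINC01502, chr9:135574675-135574974, + strand: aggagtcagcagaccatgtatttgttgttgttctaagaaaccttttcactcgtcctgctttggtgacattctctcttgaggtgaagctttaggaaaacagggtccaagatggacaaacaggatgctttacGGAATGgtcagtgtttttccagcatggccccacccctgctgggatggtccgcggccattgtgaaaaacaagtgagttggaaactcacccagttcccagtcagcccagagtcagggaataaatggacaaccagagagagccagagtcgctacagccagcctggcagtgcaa

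The motifs were searched on both strands in all RefSeq promoters of this length. TGANTCA, the AP-1 motif, occurred in 11 of the 123 member promoters (8.94%) and in 7.76% of all promoters. GGAATG, bound by TEAD factors, occurred in 26 (21.1%) and in 14%, and TATAAA in 20 (16.3%) and in 12%. CCAAT occurred in 55 (44.7%) and in 35.7%, GGGCGG in 61 (49.6%) and in 44.6%, and TGACGTCA in 2 (1.63%) and in 1.98%. Of the members called in KO, 21 of those higher and 8 of those lower had a RefSeq promoter. TGANTCA was in 2 of the 21 and 0 of the 8, GGAATG in 6 and 2, and GGGCGG in 5 and 2. Median GC content was 52.0% for the 21 and 46.5% for the 8.

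Further rises in KD were smaller. LINC01123 (chromosome 2) had 18.4 and 17.6 CPM in KD, against 7.68 and 7.07 CPM in shControl cells (log2 fold change 1.29, SE 0.14, edgeR adjusted p = 7.03e-05); 92.2% of its 50-base words also occur in other genes, mainly LINC01106, so the split between them is uncertain. APPAT (chromosome 2) had 21.7 and 21.4 CPM in KD, against 13.7 and 11.9 CPM in shControl cells (0.75, SE 0.13, edgeR adjusted p = 0.00205), and shares 62.3% of its words. In both, the KD pair lay above the other 6 libraries. LINC02432 (chromosome 4) had 115.9 and 126.6 CPM in KD, against 86.3 and 86.7 CPM in shControl cells (0.49, SE 0.07, edgeR adjusted p = 0.000835), and the KO and WT libraries lay between 80.8 and 94.2 CPM. LINC01572, LINC01671 and HK2-DT were higher by 0.97, 0.91 and 0.66 (edgeR adjusted p = 0.0355, 0.0141 and 0.0324), and each call was lost in at least 3 of the 4 fits that left out a KD or shControl library.

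Among the falls, UCA1 (chromosome 19), an RNA first described in urothelial carcinoma, had 36.95 and 35.47 CPM in KD, against 79.7 and 86.4 CPM in shControl cells. The KO and WT libraries lay between 64.0 and 75.8 CPM, so the KD pair was the lowest of the 8. Its log2 fold change was −1.20 in KD (SE 0.08, edgeR adjusted p = 2.2e-06) and −0.03 in KO (edgeR adjusted p = 0.814). LINC-PINT (chromosome 7), a p53-induced RNA that interacts with Polycomb repressive complex 2, had 4.38 and 4.93 CPM in KD, against 10.4 and 8.41 CPM in shControl cells (−1.01, SE 0.13, edgeR adjusted p = 0.000266). Its KO and WT levels were alike, 18.8 and 19.04 CPM in KO and 18.7 and 18.1 CPM in WT. LINC02068 had 0.441 and 0.613 CPM in KD, against 1.36 and 2.26 CPM in shControl cells (−1.78, SE 0.37, edgeR adjusted p = 0.00626). AC007952.4, which shares 90.8% of its words, mainly with SNORD3B-1, had 0.946 and 0.548 CPM in KD, against 2.04 and 2.51 CPM in shControl cells (−1.60, SE 0.32, edgeR adjusted p = 0.00533). LINC02015 had 2.33 and 1.58 CPM in KD, against 3.47 and 4.89 CPM in shControl cells (−1.09, SE 0.24, edgeR adjusted p = 0.0102). The calls of these 3 were lost without at least 1 KD or shControl library.

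**Figure D3:**
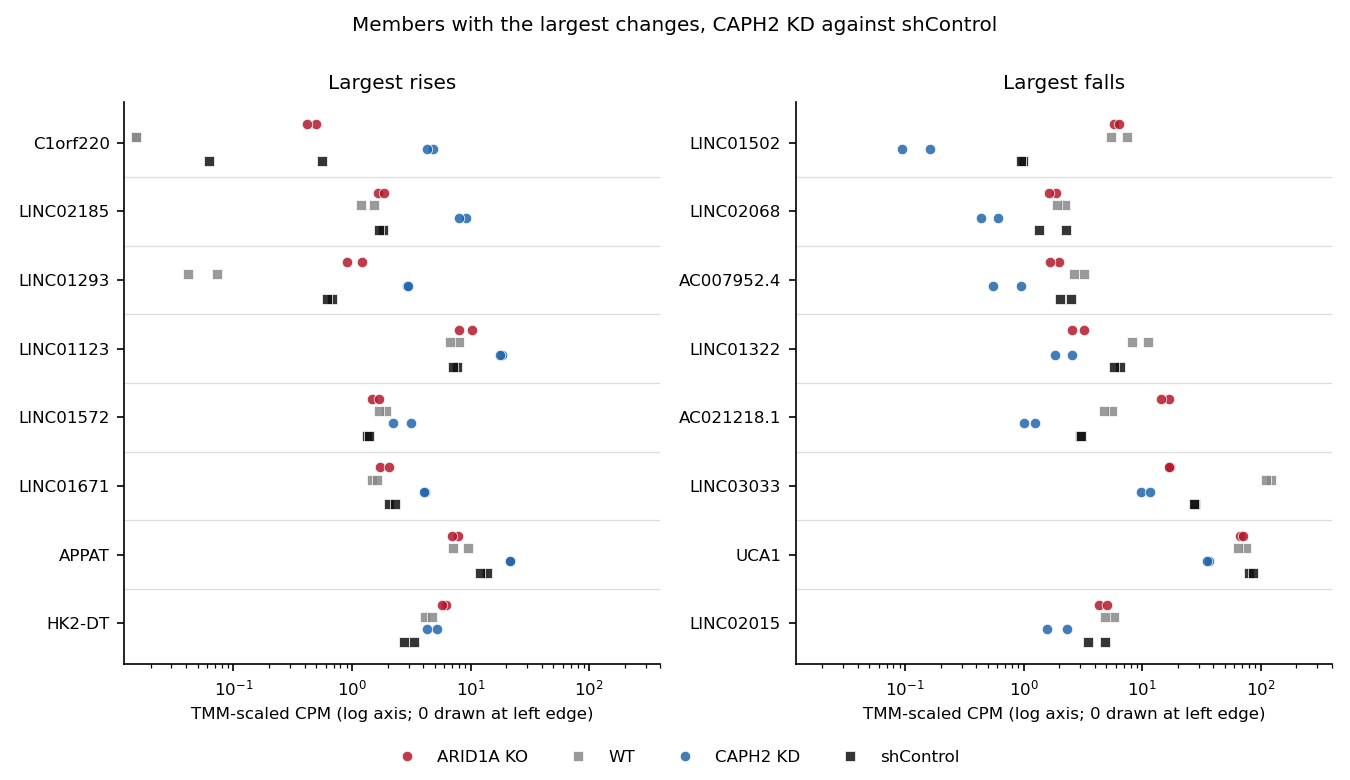
TMM-scaled CPM (log axis) in every library for the 8 largest rises (left) and falls (right) among the members called in KD against shControl; each point is 1 library, circles for KO and KD, squares for WT and shControl. LINC02185 lies at 7.93 CPM or more in KD and at 1.88 CPM or less elsewhere, and UCA1 is at 36.95 CPM or less in KD and at 64.0 CPM or more elsewhere.

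The KO and KD comparisons share no library, so their effects could be tested against each other. The effects differed for 64 of the 239 members (26.8%), more positive in KO for 42 and more negative for 22, and for 26.3% of all genes tested, 12.3% and 14%. Both comparisons called 18 members: 6 were higher in both, 5 lower in both, 5 higher in KO and lower in KD, and 2 lower in KO and higher in KD. These 18 were 7.53% of the members, 28.1% of their KO calls and 45.0% of their KD calls. Over all genes tested, 9.11% were called in both, which was 26.4% of the KO calls and 57.5% of the KD calls. The 4 pairs of directions, in the order just given, held 2.06%, 2.79%, 2.14% and 2.12% of all genes tested, against 2.51%, 2.09%, 2.09% and 0.837% of the members. The 7 with opposite directions were all called different, which largely follows from 2 calls of opposite sign and adds no further support.

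AC021218.1 (ENSG00000204876, chromosome 7) had 16.9 and 14.4 CPM in KO, against 5.62 and 4.78 CPM in WT cells, and 1.01 and 1.26 CPM in KD, against 2.97 and 3.04 CPM in shControl cells. KO was the highest group and KD the lowest, with no overlap between any 2 groups. Its log2 fold change was 1.59 in KO (SE 0.16, edgeR adjusted p = 1.1e-05) and −1.41 in KD (SE 0.20, edgeR adjusted p = 0.000593), a difference of 2.998 (SE 0.25, edgeR adjusted p = 5.59e-06). Against shControl the KO value was 2.38. DRAIC (chromosome 15), an RNA known from prostate cancer, had 16.2 and 15.4 CPM in KO, against 7.73 and 7.71 CPM in WT cells, and 4.07 and 3.39 CPM in KD, against 6.84 and 7.43 CPM in shControl cells (1.03 and −0.94; difference 1.97, SE 0.18, edgeR adjusted p = 1.19e-05). MIR4435-2HG, EPB41L4A-AS1 and LINC02532 showed the same pair of directions with smaller values: 0.27 and −0.53, 0.30 and −0.26, and 0.41 and −0.24. The KO call of MIR4435-2HG was lost without either KO library or WT library 1, and that of EPB41L4A-AS1 without KO library 2. The KD calls of EPB41L4A-AS1 and LINC02532 were lost on leaving out any 1 KD or shControl library, and LINC02532 was lower in KO than in shControl (−0.53). In the opposite pair of directions, LINC01320 was higher in KD by 0.36 and AC003092.1 by 0.55 (edgeR adjusted p = 0.0144 and 0.0203). Both calls were lost without either KD library or without shControl library 1, and that of LINC01320 also without shControl library 2.

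**Figure D4:**
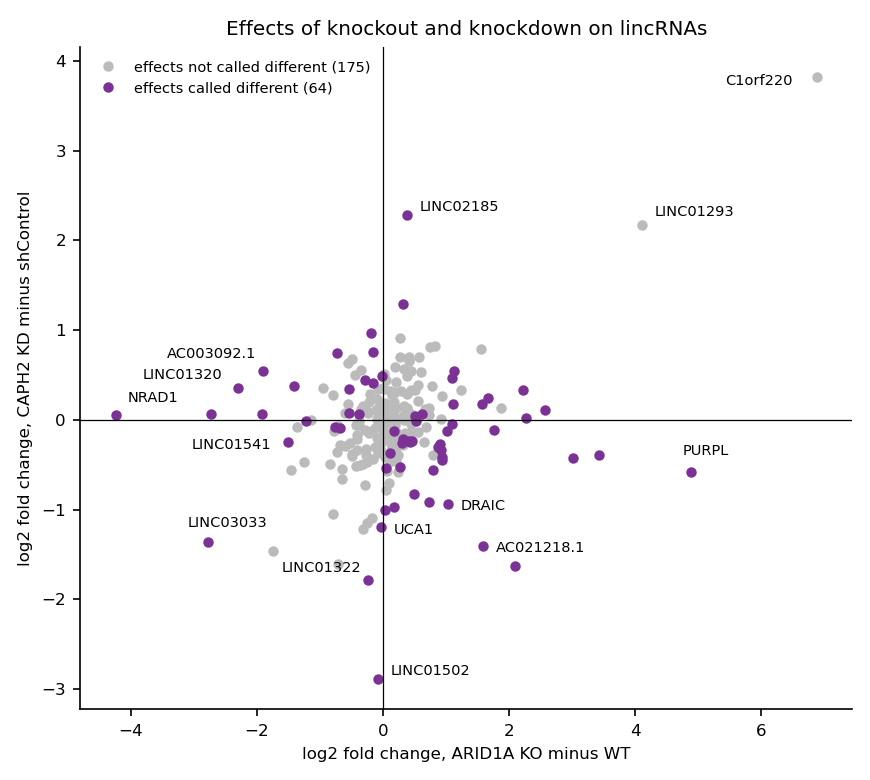
Log2 fold change in KD minus shControl (vertical axis) against that in KO minus WT (horizontal axis) for 239 lincRNAs; each point is 1 lincRNA, and the 64 purple points are those whose effects were called different. NRAD1 and PURPL lie along the horizontal axis, LINC02185 and LINC01502 along the vertical one, and AC021218.1 and DRAIC to the lower right, with a rise in KO and a fall in KD; the fitted KO value of C1orf220 rests on 0 counts in WT.

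The 2 groups without a targeted gene also differed. Between shControl and WT cells 45 members were called (18.8%; all genes tested 19.2%), 29 higher in shControl (12.1%; all genes 9.13%) and 16 lower (6.69%; all genes 10.1%). This comparison shares WT with that of KO, so the values are only set side by side. The log2 fold change of shControl over WT was 3.25 for LINC01111, 2.06 for LINC01541 and 1.11 for Z93241.1, and it was −2.72 for LINC01502 and −2.07 for LINC03033.

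Known RNAs were described by role, and the counts are a description, to be read beside the shares over all genes tested, 16.8% higher and 17.8% lower in KO and 7.62% and 8.22% in KD. Of 6 RNAs of nuclear bodies and chromatin among the members, 1 was higher in KO (JPX) and 1 lower in KD (LINC-PINT), with medians of 0.11 and −0.06. JPX, an RNA of the X-inactivation centre, had 21.5 and 23.3 CPM in KO, against 15.6 and 13.7 CPM in WT cells (log2 fold change 0.61, SE 0.11, edgeR adjusted p = 0.00108), and 79.4% of its words also occur in other genes, mainly FTX, which lies on the opposite strand. MALAT1, NEAT1, FTX and PVT1 passed neither test, but MALAT1 was called higher in KO under DESeq2 (0.18, adjusted p = 0.0361), total-count scaling (0.21), the replicate block (0.17), no low-count filter (0.17), without KO library 2 (0.26) or WT library 1 (0.22), and against shControl (0.27), and not under RLE scaling or in a fit of the 4 KO and WT libraries; of 19 RNAs listed, the others were not members. Of 40 RNAs listed as hosts of small nucleolar RNAs 7 were members: EPB41L4A-AS1, host of SNORA13, was called higher in KO, and EPB41L4A-AS1 and CYTOR lower in KD, with medians of 0.17 and −0.14. Of the words of EPB41L4A-AS1, 46.9% also occur in EPB41L4A on the opposite strand, which was itself called lower in KD (−0.48, edgeR adjusted p = 0.0396), and against shControl the KO call of EPB41L4A-AS1 was lost (0.16, edgeR adjusted p = 0.118). CYTOR, for which the annotation holds the microRNA MIR4435-1 and no small nucleolar RNA, had 10.3 and 10.5 CPM in KD, against 15.0 and 13.2 CPM in shControl cells (−0.43, SE 0.11, edgeR adjusted p = 0.0186), which was not called without either KD library or shControl library 1. CYTOR shares 16.0% of its words with MIR4435-2HG, and MIR4435-2HG 21.6% with CYTOR, so the split of reads between them is uncertain.

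Of 40 listed cytoplasmic RNAs and RNAs linked to growth or stress, 15 were members: 6 were called higher in KO (PURPL, a member only through KO, CASC9, SAMMSON, DRAIC, LINC01116 and TERC) and 1 lower (NRAD1), with a median of 0.37, and in KD 1 higher (RMRP) and 2 lower (UCA1 and DRAIC), with a median of −0.03. SAMMSON, an RNA known from melanoma, had 7.18 and 8.33 CPM in KO, against 2.19 and 2.68 CPM in WT cells (log2 fold change 1.67, SE 0.19, edgeR adjusted p = 4.4e-05). LINC01116 had 10.4 and 9.53 CPM in KO, against 5.04 and 5.54 CPM in WT cells (0.91, SE 0.16, edgeR adjusted p = 0.00104). The shRNA groups of both lay between those of KO and WT or overlapped WT. TERC, the RNA template of telomerase, had 50.8 and 64.4 CPM in KO, against 45.4 and 38.5 CPM in WT cells (0.46, SE 0.11, edgeR adjusted p = 0.00851). That call was lost without KO library 2 or WT library 2, and shControl, at 56.3 and 62.9 CPM, was as high as KO. NORAD, CRNDE, CASC15, TP53TG1, LINC00662 and LINC00667 passed neither test.

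Of 27 listed microRNA hosts 5 were members: MIR4435-2HG was called higher and MIR22HG lower in KO, and MIR4435-2HG lower in KD, with medians of −0.02 and −0.05. MIR22HG had 9.35 and 7.18 CPM in KO, against 13.5 and 10.5 CPM in WT cells (log2 fold change −0.54, SE 0.16, edgeR adjusted p = 0.0251), which was not called without KO library 2 or WT library 1. LINC00472 and LINC-PINT, not in that list, also contain microRNA genes by position. LINC00472 had 81.8 and 79.5 CPM in KD, against 108.3 and 100.8 CPM in shControl cells (−0.37, SE 0.06, edgeR adjusted p = 0.000954). For MIR22HG, MIR4435-2HG, LINC00472 and LINC-PINT, 1 mature sequence of each microRNA gene inside is printed, and any from its other arm is not. Levels of the mature microRNAs are not measured here. MIR29B2CHG, called in neither comparison, contains MIR29B2, and CYTOR contains MIR4435-1, so these sequences do not tie a product to 1 host only. Capitals mark the seed, bases 2 to 8, and sequences are from RefSeq on GRCh38.p14.
hsa-miR-30a-5p (LINC00472, chromosome 6): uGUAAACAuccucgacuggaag
hsa-miR-30c-5p (LINC00472, chromosome 6): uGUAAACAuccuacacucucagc
hsa-miR-29b-3p (LINC-PINT, chromosome 7): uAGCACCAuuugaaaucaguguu
hsa-miR-22-3p (MIR22HG, chromosome 17): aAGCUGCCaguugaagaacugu
hsa-miR-4435 (MIR4435-2HG, chromosome 2): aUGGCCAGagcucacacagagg
The 2 sequences printed for LINC00472 share the seed GUAAACA, and the other 3 printed seeds differ from it and from each other.

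The nearest protein-coding genes of the members were described. The biotype in the rule depends in part on position, with antisense RNAs a separate class, so the distances are not free of the selection. In KO, 53 of the 64 called members had a nearest coding gene that was tested; 26 of these neighbours were called, 21 in the direction of the lincRNA and 5 in the opposite one. LINC01111 and LINC01109 share ZFHX4, and LINC01091 and AC093821.1 share SPRY1, so the 26 stand for 24 genes. Of the 147 uncalled members with a tested neighbour, 63 had a called one. In KD, 34 of the 40 called members had a tested neighbour, and 11 were called, all 11 in the direction of the lincRNA; of 166 uncalled members with a tested neighbour, 38 had a called one. The neighbour overlapped the lincRNA in 3 of the 26 KO pairs and 2 of the 11 KD pairs, and lay farther than 50 kb in 12 and 4.

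SHH, the signalling protein sonic hedgehog and the nearest coding gene of AC021218.1, had 5.67 and 6.35 CPM in KO, against 3.76 and 3.04 CPM in WT cells (log2 fold change 0.82, SE 0.24, edgeR adjusted p = 0.0189), and 0.221 and 0.387 CPM in KD, against 1.67 and 1.17 CPM in shControl cells (−2.21, SE 0.35, edgeR adjusted p = 0.00119). The order of the 4 groups was that of AC021218.1, which lies farther than 50 kb from SHH. PAEP, the secreted endometrial glycoprotein glycodelin, nearest to LINC01502, had 2.08 and 1.84 CPM in KD, against 4.52 and 6.23 CPM in shControl cells (−1.46, SE 0.18, edgeR adjusted p = 0.000171). PAEP had 48.9 and 50.1 CPM in KO, against 33.9 and 30.2 CPM in WT cells, far above both shRNA groups, as for LINC01502. SCCPDH, within 5 kb of AL591848.4, had 32.8 and 35.8 CPM in KO, against 64.4 and 73.3 CPM in WT cells (−1.01, SE 0.07, edgeR adjusted p = 1.05e-06). SPRY1, a feedback inhibitor of growth factor signalling, had 4.82 and 3.76 CPM in KO, against 0.744 and 1.38 CPM in WT cells (2.00, SE 0.31, edgeR adjusted p = 0.000395), and LINC01091 and AC093821.1, the second a member only through KO, had log2 fold changes of 1.58 and 1.77. SP5, a WNT-responsive transcription factor nearest to ERICH2-DT, had 0.411 and 0.235 CPM in KO, against 0.951 and 1.41 CPM in WT cells (−1.87, SE 0.46, edgeR adjusted p = 0.00802). SPRY1 lies farther than 50 kb from both its lincRNAs, and PAEP and SP5 between 5 and 50 kb from theirs.

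Pairs that start close together on opposite strands were among them. NUP50-DT and NUP50, a nucleoporin gene, were 1.02 and 0.39 higher in KO on the log2 scale, and HK2-DT and HK2, the gene of hexokinase 2, 0.66 and 0.46 higher in KD. LINC00938 and ARID2, a subunit gene of a SWI/SNF complex that lies within 5 kb, were 0.74 and 0.46 higher in KO. The starts of that pair are not within 1 kb of each other. The opposite cases in KO were LINC01541 with CBLN2, LINC01270 with CEBPB, LINC01505 with ZNF462, DRAIC with RPLP1 and MIR4435-2HG with BCL2L11. CEBPB, a transcription factor of inflammatory responses, had a log2 fold change of −0.93 where that of LINC01270 was 0.95. CBLN2, at 0.521 and 0.601 CPM in KO, had no count in WT cells.

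**Figure D5:**
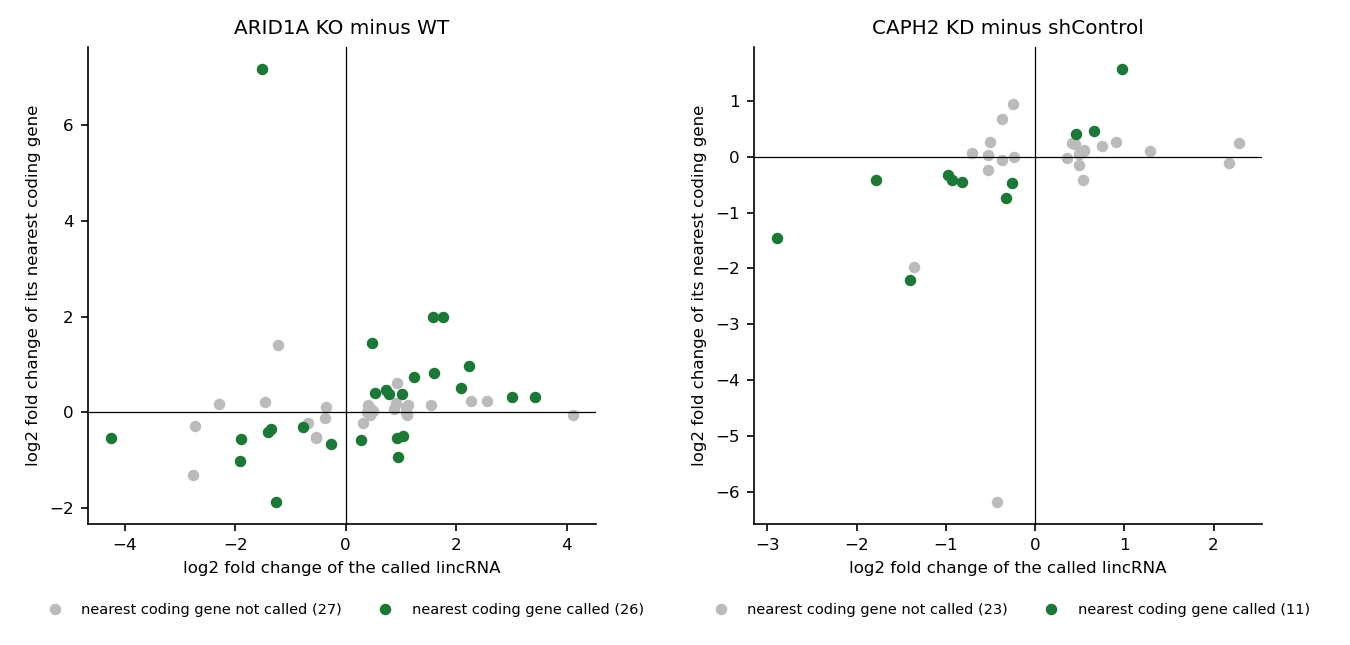
Log2 fold change of the nearest protein-coding gene (vertical axis) against that of the called lincRNA (horizontal axis), KO minus WT on the left and KD minus shControl on the right; each point is 1 lincRNA, green where the coding gene was called too. In KO 21 of 26 green points lie where both signs match, and in KD all 11; the KO point at 7.18 is CBLN2, with 0 counts in WT.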

How the data were processed

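Per the labels' protocols, Trizol was used to extract RNA from RMG1 cells, a DNase step followed, and a TruSeq Total RNA kit gave the libraries. The deposited table holds RSEM expected counts, already whole numbers, for 57736 genes in 8 libraries; the authors aligned reads with Bowtie2 to hg19 and counted them with RSEM 1.2.12, per the submitters' processing notes. For annotation release and strandedness, the setting is not given in the sources used here. Ensembl IDs were matched to GENCODE 29, of which 52301 matched, for biotype, chromosome, exonic length and neighbours. The lincRNAs, gene lists and tests were chosen with earlier results of these data known.

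The counts were fitted with edgeR 4.0.16 (R 4.3.3; TMM scaling, filterByExpr, quasi-likelihood F-test) over all 8 libraries and 4 group means, with a common biological coefficient of variation of 7.74% and 4 residual degrees of freedom, and p-values were adjusted by Benjamini-Hochberg over 16657 genes. All 239 lincRNAs passed the low-count filter. Levels are CPM scaled by TMM; the rule used CPM without TMM. Named were NRAD1, the 8 highest members, the 8 largest called rises and falls of each comparison, called members of the lists, members called in opposite directions, called nearest coding genes of these, and genes among the 5 most correlated with NRAD1, of which 1 is not reported here; AL360012.1 and the pairs with NUP50, ARID2, SPRY1, SP5, CEBPB and ZNF462 were chosen after their values were seen. Promoters and microRNAs are from RefSeq (GRCh38.p14). Scaling, tool (DESeq2 1.42.0), filter, block, reference and left-out libraries were varied. Figures and tables were made with Python 3.11.15, pandas 2.3.3 and matplotlib 3.10.9. The fitting code was tested on simulated data.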

Additional observations from a re-analysis of the deposited data

How the results depend on the processing

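Counts of called lincRNAs moved little with scaling, tool, filter or member threshold: the KO count of 64 was 54 with DESeq2 and 55 from the 4 libraries alone, and the KD count of 40 was 35 with DESeq2. Of the 133 members that overlap no other exon, 41 were called in KO (26 higher) and 22 in KD (9 higher, 13 lower). Over all 239 members, 64 (26.8%) and 40 (16.7%) were called, and over all genes tested 34.5% and 15.8%. The 133 are a smaller set, so their lower counts do not mean a smaller share. The difference between the effects was called for 36 of the 133 (24 higher, 12 lower). At an adjusted p under 0.01 the counts were 28 higher in KO, 20 in KD (7 higher, 13 lower) and 39 for the difference (23 higher). No share over all genes is given at that threshold. With shControl in place of WT, 35 were lower in KO, for which no share over all genes is given. The cause was not tested.

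Leaving out 1 library at a time gave 47 to 66 calls in KO (32 to 45 higher, 15 to 21 lower), 19 to 47 in KD (7 to 19 higher, 12 to 28 lower), 45 to 62 for the difference (29 to 42 higher, 16 to 22 lower) and 23 to 43 for shControl against WT (15 to 27 higher, 8 to 17 lower). The KD count was 24 without either KD library, 22 without shControl library 1 and 19 without shControl library 2. Such fits assume that a lone library varies like the other groups, and no share over all genes is given for them.

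With shControl as the reference of KO, the sign turned for RMRP (0.31), NORAD (−0.31), Z93241.1 (−1.09), LINC01502 (2.64), CYTOR (0.55), TERC (−0.04855) and LINC02532 (−0.53), and NEAT1 in KO ran between −0.1832 and 0.178 when a WT library was left out; the cause was not tested. The share of counts in the members, KO minus WT, was 0.0584 percentage points, ran between 0.006722 and 0.11 with a library left out, and was −0.002957 without the 3 highest members, settings chosen after seeing the data. The KD minus shControl share ran between −0.0662 and −0.01686 with a library left out.

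Replicate numbers did not pair the libraries: deviations of same-numbered libraries correlated between −0.0239 and 0.0296. With the replicate block, 61 members were called in KO, 38 in KD, 59 for the difference and 42 for shControl against WT.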

Other observations

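Some lincRNA rows under the 1 CPM mean also differed between groups. Of 394 such rows that were tested, 50 were called in KO (12.7%; 33 higher, 17 lower) and 9 in KD (2.28%; 7 higher, 2 lower). Both shares lay below those over all genes tested, 34.5% in KO and 15.8% in KD. AL157402.1 had 33 and 77 counts in the KO libraries and none in WT. LINC01060 had 1.73 and 2.19 CPM in KO, against 0 and 0.0724 CPM in WT, and 1.45 and 1.45 CPM in KD, against 0.0310 and 0.279 CPM in shControl cells. LINC00868 had 1.48 and 1.61 CPM in KD, against 0.0619 and 0.251 CPM in shControl cells (log2 fold change 3.24, SE 0.53, edgeR adjusted p = 0.00146). LINC01483 had no count in KD, against 7 and 6 counts in shControl cells.

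Other noncoding classes of 1 CPM or more were counted the same way. Of 241 antisense RNAs 53 were called in KO (22.0%) and 18 in KD (7.47%), and of 105 processed transcripts 36 in KO (34.3%) and 15 in KD (14.3%). Over all genes tested, 34.5% were called in KO and 15.8% in KD. The 15 processed transcripts called in KD were 2 higher and 13 lower, where all genes tested had 7.62% higher and 8.22% lower.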
